A study of Drosophila melanogaster with 23 samples.

Results

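The larval cuticle protein genes examined here were the 8 genes named Lcp1, Lcp2, Lcp3, Lcp4, Lcp65Aa, Lcp65Ac, Lcp65Ag1 and Lcp65Ag2, found by FlyBase symbol among the 17606 genes of a count table for Drosophila melanogaster. The RNA came from whole larvae at the L1 stage, both sexes together, in pools of 25-30 animals raised at 25 °C, and was read as total RNA in 23 libraries of 6 genotypes. There were 4 mutant groups with 4 libraries each. These were larvae of the genotype labelled Set21, larvae labelled H3.3K36RH3.2K36R (here combined H3K36R), larvae labelled H3.3K36RH3.2HWT (H3.3K36R alone) and larvae labelled H3.3CtrlH4K16R (H4K16R). The control groups were H3.3CtrlH3.2HWT, here the histone control, with 4 libraries, and the stock yw with 3. Trimethylation of lysine 36 of histone H3 is the work of Set2. H3.3 is the histone H3 variant placed into chromatin outside replication, and H3.2 is the replicated form. K36R and K16R are changes from lysine to arginine, which cannot carry the methyl and acetyl marks of these residues of H3 and H4. Per the series' design text each mutant has a control of matched genetic background. The Set2 mutant was therefore set against yw, and the 3 histone mutants against the histone control. What HWT and the H3.3 control label stand for in full, and how many parent crosses were used, is not given in the sources used here.

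The larval cuticle is the exoskeleton that the epidermis secretes anew at each moult, a mesh of chitin fibres held in a protein matrix. Lcp proteins belong to the CPR family of structural proteins, which bind chitin through the Rebers-Riddiford domain. Lcp1 to Lcp4 were first described as abundant proteins of the cuticle of the last larval instar. Lcp65A genes sit in a tandem array that has grown by repeated duplication, with copies used at different stages. Cuticle genes as a class are switched on and off in short windows under the moulting hormone ecdysone.

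The genes lie in 2 clusters. Positions are those of the BDGP6.54 annotation, which may differ from the annotation behind the counts. The first cluster spans 8381 bases of chromosome arm 2R, from 8430115 to 8438495. In it Lcp1 (FBgn0002531) and Lcp2 (FBgn0002533) are on the minus strand, and Lcp3 (FBgn0002534, 8435310 to 8436095) and Lcp4 (FBgn0002535, 8437647 to 8438495) on the plus strand. The second spans 18814 bases of arm 3L, from 6132990 to 6151803. Lcp65Ag2 (FBgn0020637) and Lcp65Ag1 (FBgn0020638, 6134697 to 6135274) are next to each other there on the minus strand, and Lcp65Ac (FBgn0020642, 6144819 to 6145393) and Lcp65Aa (FBgn0020645, 6151304 to 6151803) follow on the plus strand. All 8 are short protein-coding genes with 500 to 1065 bases of exon. Lcp65Ag1 and Lcp65Ag2 with their neighbour Lcp65Ag3, and likewise Lcp1 and Lcp2, are known as close copies. The split of reads within these sets is uncertain, because the sources used here do not state how reads mapping to several places were counted.

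Library totals ran from 111138070 to 157973821 counts, and a chi-square test found replicates of each group further apart than counting error alone (22.9 or more for each degree of freedom). Nothing in the labels says that replicates came from separate parents, so p-values measure the spread between these libraries, part of which may be technical. Set2 itself checked its label, at 6.51 ± 1.20 CPM in the Set2 mutant (SD, n = 4) against 77.3 ± 6.23 CPM in yw (n = 3), where CPM is the count scaled to a common library total with TMM factors. In the other groups Set2 averaged 76.5 CPM in combined H3K36R, 75.8 CPM in H3.3K36R alone, 59.9 CPM in H4K16R and 73.3 CPM in the histone control. Summed markers of midgut, muscle, neuron, fat body and hemocyte were present in every library, and among single markers the late fat body genes Lsp2 and Fbp1 and the epidermal gene dy were at 0 counts in some libraries. In RNA from whole larvae, fewer cells of a type and less RNA per cell cannot be told apart.

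Lcp65Ag2 and Lcp65Ag1 supplied most of the RNA of these 8 genes once length was taken into account. On the scale of CPM per kb of exon, Lcp65Ag2 averaged 1513 ± 596 in the Set2 mutant, 371 ± 76.6 in combined H3K36R, 1379 ± 139 in H3.3K36R alone, 959 ± 246 in H4K16R, 1215 ± 277 in the histone control and 1509 ± 265 in yw. It held the highest level of the 8 in every group. Lcp65Ag1 was next in every group except combined H3K36R, where Lcp4 at 74.9 ± 9.68 CPM per kb, Lcp65Ac at 61.2 ± 13.4 and Lcp65Ag1 at 54.0 ± 47.7 lay within each other's spread. In the Set2 mutant Lcp65Ag2 and Lcp65Ag1 could not be separated, at 1513 ± 596 and 1461 ± 539 CPM per kb. Lcp4 and Lcp65Ac formed the middle of the order, between 34.2 and 135.7 CPM per kb in group means. Lcp65Aa and Lcp3 followed them in the means of every group. Lcp65Ac was not apart from Lcp65Aa in yw (34.2 ± 4.65 and 33.6 ± 6.22) or from Lcp3 in H4K16R (65.6 ± 18.8 and 48.2 ± 19.8). Lcp1 and Lcp2 closed the order everywhere at no more than 1.16 CPM per kb. Together the 8 genes took 0.158% ± 0.055 of counts in the Set2 mutant, 0.0379% ± 0.0080 in combined H3K36R, 0.125% ± 0.0084 in H3.3K36R alone, 0.0883% ± 0.024 in H4K16R, 0.104% ± 0.020 in the histone control and 0.130% ± 0.022 in yw.

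**Figure D1:**
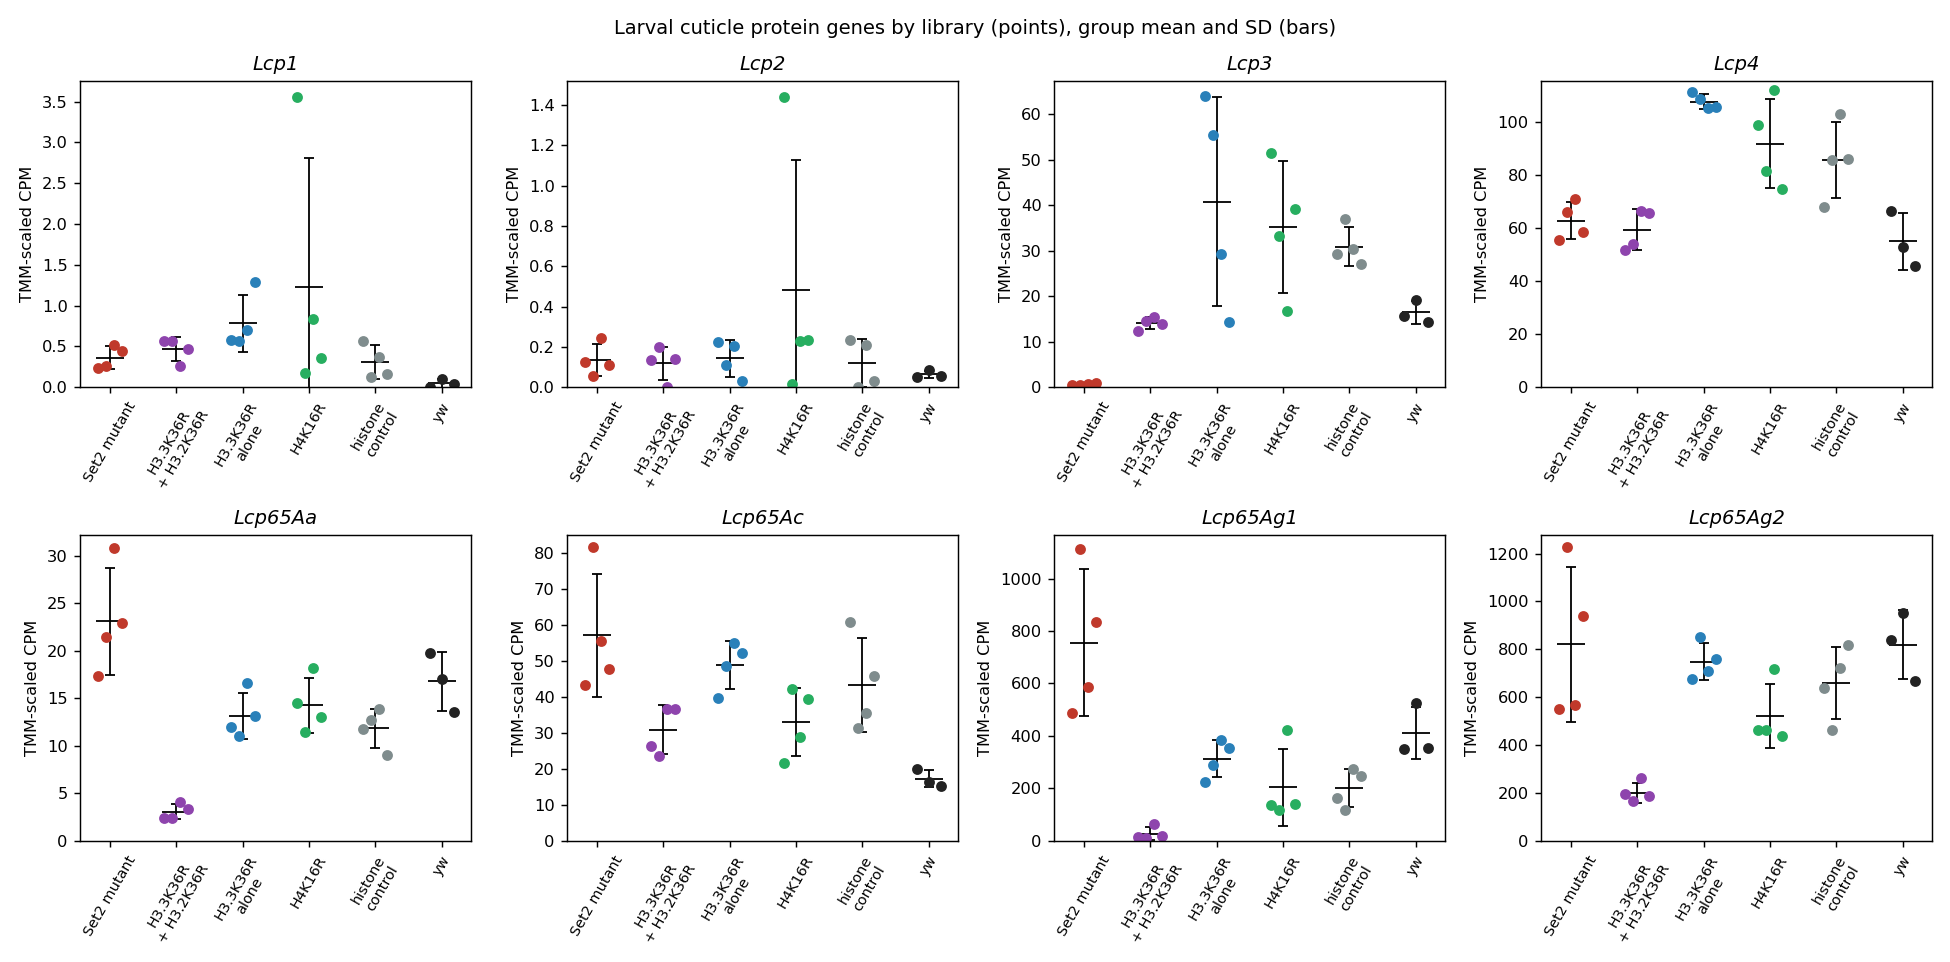
TMM-scaled CPM (linear axis from 0) of each of the 8 genes by library, with the groups from left to right as named; points are libraries, and bars are the group mean and SD, cut at 0 where they would pass below it. Lcp3 is lowest in the 4 Set2 mutant libraries, at most 0.987 CPM, and Lcp65Aa, Lcp65Ag1 and Lcp65Ag2 are lowest in combined H3K36R.

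The comparison of the Set2 mutant with yw asks what loss of Set2 does to expression. Lcp3 fell, Lcp65Ac and Lcp1 rose, and the other genes did not pass the test. The call was an adjusted p below 0.05 in edgeR's quasi-likelihood test over 14365 genes. Of the 8 genes 2 were called higher, where 23.4% of all genes tested were, and 1 was called lower, where 21.1% were. With 44.5% of all genes called in either direction, 3 of 8 is near the background. The median log2 fold change of the 8 genes was 0.67, beside 0.02 over all genes.

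Lcp3 was read at 0.425, 0.457, 0.695 and 0.987 CPM in the Set2 mutant, from 55 to 124 counts a library, against 15.7, 19.2 and 14.4 CPM in yw. The libraries of the groups were far apart, and no mutant library came near the lowest yw library. The log2 fold change was -4.68 ± 0.44 (SE), a 25.7-fold difference, with an adjusted p of 4.27e-07 in edgeR. Its neighbour Lcp4, on the same strand, was at 55.5, 65.9, 70.7 and 58.3 CPM in the mutant and 66.4, 52.9 and 45.5 CPM in yw. Those ranges overlapped, and Lcp4 did not pass, at 0.19 ± 0.15 (adjusted p = 0.327 in edgeR). The fall in this cluster was thus seen for the gene Lcp3 and not detected for the adjacent one.

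Lcp65Ac, a gene of the 3L array, was at 43.4, 81.8, 55.6 and 47.9 CPM in the Set2 mutant against 19.9, 16.5 and 15.4 CPM in yw. Every mutant library exceeded every yw library, and so did every library of the other groups. The share of all genes with such a separation was not determined. Lcp65Ac rose by 1.73 ± 0.27 on the log2 scale (adjusted p = 4.76e-05 in edgeR), which is 3.31-fold. The rest of the members of this array did not pass. Lcp65Aa was at 17.3, 21.4, 30.8 and 22.9 CPM in the mutant and 19.8, 17 and 13.6 CPM in yw, an estimate of 0.46 ± 0.22 (edgeR adjusted p = 0.0905) that passed without Set2 mutant replicate 1 (0.59, adjusted p = 0.0345). Lcp65Ag1 was at 488, 1111, 587 and 836 CPM in the mutant and 351, 527 and 355 CPM in yw, at 0.88 ± 0.55 (edgeR adjusted p = 0.210). With the compared groups alone it passed (0.86, edgeR adjusted p = 0.0483). Both genes had means above yw with overlapping libraries, and the mutant libraries of Lcp65Ag1 differed among themselves by more than 2-fold. Lcp65Ag2 was at 552, 1225, 567 and 941 CPM in the mutant against 841, 952 and 666 CPM in yw, and its change was 0.0030 ± 0.25 on the log2 scale (edgeR adjusted p = 0.996).

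Lcp1 and Lcp2 were close to undetected in these larvae. Lcp1 had 30, 37, 67 and 56 counts in the Set2 mutant against 0, 12 and 4 counts in yw, a fitted log2 fold change of 2.94 ± 0.96 (adjusted p = 0.0169 in edgeR). Every library of the other groups also had more Lcp1 counts than any yw library. The call was lost without yw replicate 2 (adjusted p = 0.0641) or yw replicate 4 (adjusted p = 0.0671), and without yw replicate 3 the estimate was 4.28. Lcp2 had 8 to 32 counts in mutant libraries and 6 to 10 in yw libraries, and it did not pass (adjusted p = 0.528 in edgeR).

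Around the members, 17 further genes were listed: the other cuticle genes of the array on 3L, other Lcp-named genes, and Pcp, a pupal cuticle gene. Of these 16 were in the table and 13 had enough counts to be tested. In the Set2 mutant 1 of the 13 rose and 3 fell, where 23.4% and 21.1% of all genes tested did. The median log2 fold change of the 13 was 0.29. Lcp65Ag3 rose by 0.65 ± 0.23 (edgeR adjusted p = 0.0236). Lcp65Ae fell by 1.76 ± 0.30 on that scale (adjusted p = 0.000123), Pcp by 0.97 ± 0.36 and Cpr65Ay by 0.55 ± 0.17. Within the 3L array from Lcp65Ag3 to Acp65Aa, then, Lcp65Ag3 and Lcp65Ac were called higher and Lcp65Ae lower. The other tested genes of that stretch did not pass.

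Genes that build and harden cuticle were called in both directions in the Set2 mutant, and the shares called higher were near the 23.4% of all genes. Called lower were 21.1% of all genes. Of 19 genes for chitin synthesis and cuticle assembly, 5 rose and 1 fell in the Set2 mutant, with a median of 0.37. The largest of these was Cht5, a chitinase that degrades old cuticle at the moult, at 3.35 ± 0.50 (edgeR adjusted p = 4.91e-05). Retroactive (rtv), expansion (exp) and Knickkopf (knk), which are needed for ordered chitin, rose by 1.06, 0.82 and 0.69. Of 9 genes for cuticle tanning, 2 rose and 3 fell. Among them Ddc, the dopa decarboxylase, fell by 1.09 ± 0.18, ple, the tyrosine hydroxylase, by 0.56 ± 0.13 and ebony (e) by 0.58 ± 0.18, while amd rose by 2.19 ± 0.58. Of 17 genes of the response to moulting hormone, 4 rose and 6 fell. The nuclear receptor gene ftz-f1 fell by 0.94 ± 0.21, ImpL2 by 0.58 ± 0.15 and Kr-h1 by 0.38 ± 0.10, while ImpE1 rose by 3.06 ± 0.73.

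Markers of the epidermis, which makes the cuticle, moved with the Set2 mutant. Of 10 markers 8 rose, where 23.4% of all genes tested did, with a median log2 fold change of 4.31. Their summed level was 578 to 1209 CPM in the mutant against 228 to 269 CPM in yw. Among those that rose, trynity (tyn), dusky-like (dyl) and nyobe (nyo), genes of the apical matrix of epidermal cells, rose by 2.53 ± 0.48, 5.20 ± 1.29 and 4.14 ± 1.20, and forked (f) by 0.99 ± 0.27. No epidermal marker was at 0 counts in a library of either group, though dy had as few as 1 count in yw. The epidermal transcription factor genes grh, at -0.11 ± 0.18, and ovo, at 0.34 ± 0.20, did not pass. Of 5 markers of trachea, which has its own cuticle, 3 rose, where 23.4% of all genes tested did. Their sum was 678 to 999 CPM in the mutant and 410 to 466 CPM in yw. Most of it was uif, at 508 to 781 CPM against 242 to 302 CPM, while the tracheal genes btl and trh did not pass. Summed markers of neurons, with 4 of 5 lower, were 442 to 1139 CPM against 1525 to 1693 CPM. Fat body markers had 2 of 5 lower, where 21.1% of all genes were. Their sum was 7195 to 9645 CPM in the mutant and 10075 to 13648 CPM in yw. The part of these tissues in the changes of Lcp3, Lcp65Ac and Lcp1 was not tested.

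Larvae with combined H3K36R were set against the histone control, which asks what follows when lysine 36 is changed in both forms of histone H3. Lcp3, Lcp4, Lcp65Aa, Lcp65Ag1 and Lcp65Ag2 fell. These 5 of the 8 were called lower, where 22.8% of all genes tested were, and 0 higher by edgeR, where 16.4% were. At an unadjusted p below 0.05 the count was 6 lower and 0 higher, and DESeq2 called 5 lower and 0 higher. In all, 39.2% of genes were called. The members' median was -0.83, beside -0.02 over all genes.

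The largest falls were in the 3L array. Lcp65Ag1 was at 16.1, 10.8, 64.5 and 20.2 CPM in combined H3K36R against 163, 119, 275 and 248 CPM in the histone control. Replicate 3 of combined H3K36R was more than 3 times as high as each of the others and still below every control library. The log2 fold change was -2.85 ± 0.53 (edgeR adjusted p = 0.000309), and without that replicate it was -3.66. Lcp65Aa was at 2.44, 2.38, 4.06 and 3.34 CPM in combined H3K36R against 11.8, 12.7, 13.8 and 8.99 CPM in the control, a difference of -1.95 ± 0.21 on the log2 scale (edgeR adjusted p = 3.00e-07). Lcp65Ag2 was at 195, 165, 261 and 186 CPM in combined H3K36R against 639.6, 462, 721 and 816 CPM in the control, at -1.71 ± 0.24 (edgeR adjusted p = 9.63e-06). For each of these 3 genes the libraries of the groups did not overlap, and the share of all genes without overlap was not determined. The fold differences were 7.21 for Lcp65Ag1, 3.87 for Lcp65Aa and 3.27 for Lcp65Ag2.

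The member of this array that did not pass was Lcp65Ac. It was at 26.5, 23.7, 36.7 and 36.7 CPM in combined H3K36R and 60.8, 31.4, 35.5 and 45.8 CPM in the histone control, with overlapping libraries and an estimate of -0.49 ± 0.23 (edgeR adjusted p = 0.106).

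In the 2R cluster Lcp3 and Lcp4 both fell, by less. Lcp3 was at 12.3, 14.7, 15.4 and 13.9 CPM in combined H3K36R against 29.3, 36.9, 30.4 and 27.1 CPM in the histone control, a difference of -1.14 ± 0.37 on the log2 scale (edgeR adjusted p = 0.0181). The groups did not overlap, but the call was lost without replicate 2 of the histone control (adjusted p = 0.0539) or replicate 1 of combined H3K36R (adjusted p = 0.0516). Lcp4 was at 51.6, 53.9, 66.4 and 65.4 CPM in combined H3K36R against 67.8, 85.7, 103.0 and 85.8 CPM in the control. Its groups did not overlap either, by a narrow margin, and it fell by 0.53 ± 0.14 on the log2 scale (edgeR adjusted p = 0.00407). Lcp1, with 42 to 81 counts in combined H3K36R and 17 to 68 in the control, did not pass (adjusted p = 0.562 in edgeR), and neither did Lcp2, with 0 to 28 and 0 to 30 counts.

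Of the 13 other cuticle genes tested, 6 fell and 1 rose, where 22.8% and 16.4% of all genes tested did. The median of the 13 was -1.52, beside -0.02 over all genes. Lcp65Ag3 fell by 1.61 ± 0.21 (edgeR adjusted p = 4.50e-06), Lcp65Af by 1.97 ± 0.34 and Lcp65Ae by 1.52 ± 0.28. Cpr65Ay rose by 1.06 ± 0.16 (adjusted p = 2.01e-05). Cpr65Ax1 and Cpr65Ax2, which are known as copies of each other and whose reads may be shared, were at -2.77 ± 0.62 and -2.71 ± 0.62. Lcp65Ab1, Lcp65Ab2 and Cpr65Az were not tested, with 20, 14 and 42 counts over all 23 libraries. Along the array, called falls ran over neighbours on the minus strand, from Lcp65Ag3 through Lcp65Ag2, Lcp65Ag1, Lcp65Af and Lcp65Ae to Cpr65Av (-0.61 ± 0.20), apart from Cpr65Au, which did not pass, and came again at the far end in Cpr65Ax1, Cpr65Ax2 and Lcp65Aa.

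**Figure D2:**
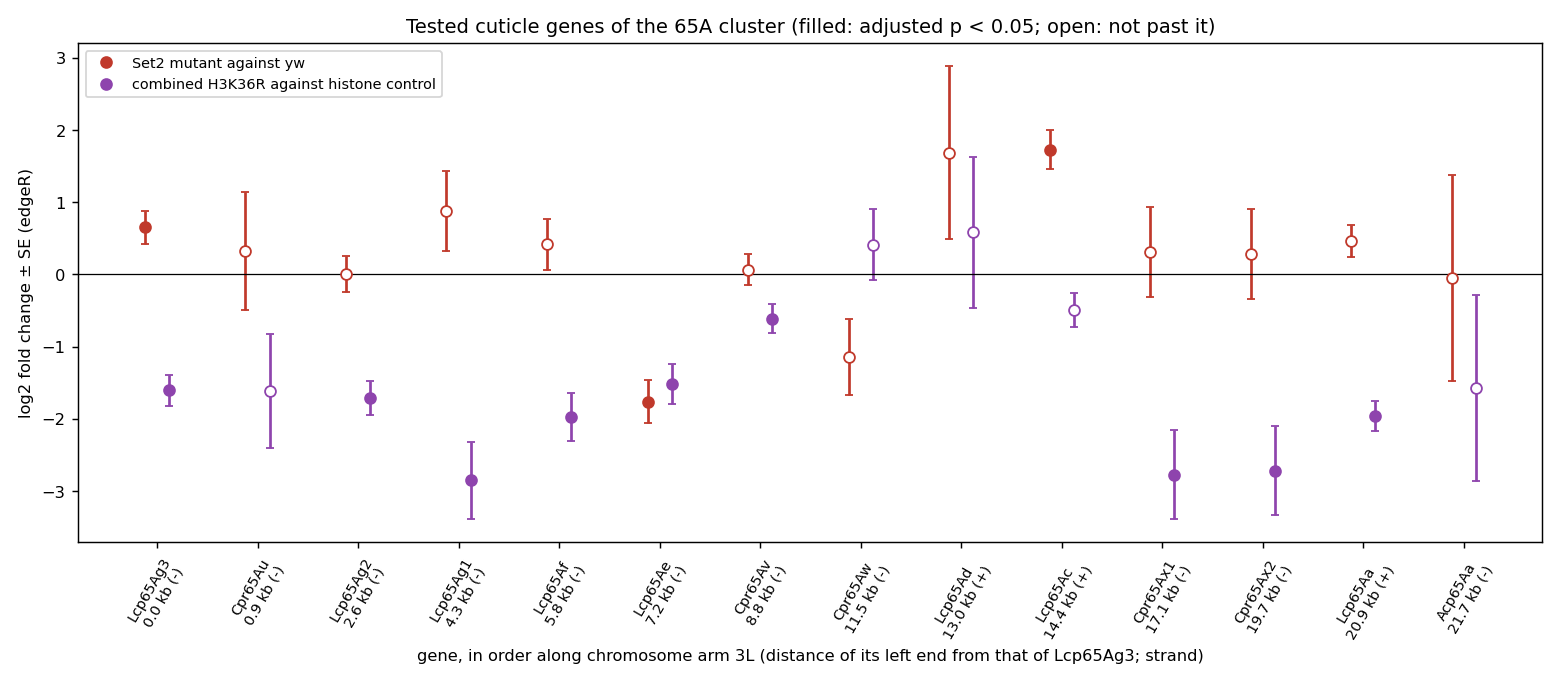
Log2 fold change ± SE (edgeR, y axis) of the 14 tested cuticle genes of the 3L array from Lcp65Ag3 to Acp65Aa, in their order along the chromosome arm with the distance from the first and the strand (x axis), in the Set2 mutant against yw (red) and in combined H3K36R against the histone control (purple); filled points passed an adjusted p of 0.05. Purple points lie below 0 for 12 of the 14 genes, and red filled points lie on both sides of 0.

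Of 19 genes for chitin synthesis and cuticle assembly 10 fell in combined H3K36R, where 22.8% of all genes did, and 4 rose, which is near the 16.4% of all genes that did. Their median was -0.57. The chitin deacetylase genes Cda9 and Cda4 fell by 0.93 ± 0.12 and 1.32 ± 0.22 and the chitin-binding gene obst-E by 1.30 ± 0.24, while Gasp, another chitin-binding protein gene, rose by 1.10 ± 0.22. Of 9 tanning genes 4 fell, again beside 22.8% of all genes, with ple at -1.25 ± 0.12, ebony (e) at -1.19 ± 0.16, Pu at -0.75 ± 0.12 and Ddc at -0.67 ± 0.17. Of 17 genes of the moulting hormone response 9 rose, beside 16.4% of all genes. Eip74EF, an early target of ecdysone, rose by 1.78 ± 0.19, ImpL2 by 0.92 ± 0.14, the ecdysone receptor gene EcR by 0.62 ± 0.11 and Kr-h1 by 0.36 ± 0.09.

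Most epidermal markers did not pass in combined H3K36R. Of 10 markers 1 rose, grh, by 0.49 ± 0.17 (edgeR adjusted p = 0.0219). The median log2 fold change of the 10 was -0.14. Their summed level was 313 to 397 CPM in combined H3K36R and 252 to 412 CPM in the histone control, so the ranges overlapped. Much of that sum was grh, at 189 to 269 CPM against 134 to 192 CPM, so it says little of the weaker markers. Of those named for the Set2 mutant, nyo was at -2.01 ± 0.98, dyl at -0.23 ± 0.96, tyn at -0.05 ± 0.41 and f at 0.36 ± 0.24. None of these passed. Summed markers of trachea, with 1 of 5 lower, overlapped between the groups too, at 376 to 453 CPM against 362 to 552 CPM in the control. Of all genes tested 22.8% were called lower and 16.4% higher. The summed muscle markers, with 4 of 5 lower, were at 14957 to 18684 CPM against 18442 to 25249 CPM in the control, and the summed fat body markers, with 3 of 5 lower, were at 2427 to 3711 CPM against 7610 to 9584 CPM. The summed markers of neurons, with 1 of 5 higher, were at 1780 to 2051 CPM against 1419 to 1704 CPM, those of midgut, with 0 of 5 called, at 1388 to 1613 CPM against 1225 to 1370 CPM, and those of hemocytes, with 1 of 4 higher and 1 lower, at 286 to 340 CPM against 258 to 284 CPM. Except for trachea and muscle, the sums of these other tissues did not overlap between the groups. Their part in the falls of the Lcp genes was not tested.

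H3.3K36R alone and H4K16R were each compared with the histone control, to ask about lysine 36 of the H3.3 form and about lysine 16 of histone H4. None of the 8 genes was called in either. In H3.3K36R alone edgeR called 1.96% of all genes, DESeq2 called 0 of the 8, and 1 had an unadjusted p below 0.05, Lcp4. In H4K16R edgeR called 1.31% of all genes, DESeq2 called 0 of the 8, and 1 had an unadjusted p below 0.05, Lcp1. The members' median log2 fold change was 0.30 in H3.3K36R alone and 0.14 in H4K16R, beside 0.03 and 0.05 over all genes.

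Of the cuticle genes outside the 8, the tanning genes ebony (e) and ple fell in H3.3K36R alone, by 1.01 and 0.64.

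In H3.3K36R alone, Lcp4 was at 111, 108, 105 and 105 CPM, against 67.8, 85.7, 103.0 and 85.8 CPM in the histone control. The 4 mutant libraries were tight and all above the control, but the log2 fold change of 0.33 ± 0.14 did not pass (edgeR adjusted p = 0.193). Lcp3 was at 64.1, 55.4, 29.4 and 14.3 CPM, against 29.3, 36.9, 30.4 and 27.1 CPM in the control. The Lcp3 libraries of H3.3K36R alone differed among themselves by more than 4-fold and lay on both sides of the control, at 0.40 ± 0.36 (edgeR adjusted p = 0.569). Lcp65Ag1 was at 224, 291, 384 and 356 CPM, with a log2 fold change of 0.64 ± 0.50, and the 3 other genes of the array were between 0.15 and 0.18.

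In H4K16R, replicate 3 stood apart from the other 3 libraries. Lcp65Ag1 was at 135, 118, 424 and 140.5 CPM, and the control at 163, 119, 275 and 248 CPM. The log2 fold change of 0.02 ± 0.50 rested on that library and was -0.65 without it (edgeR adjusted p = 0.612). Lcp65Ag2 was at 462, 463, 720.0 and 438 CPM in H4K16R against 639.6, 462, 721 and 816 CPM in the control, and did not pass (-0.34 ± 0.23, edgeR adjusted p = 0.521). In the same library the summed epidermal markers were at 605 CPM, against 223 to 240 CPM in the other 3 H4K16R libraries. Its share in the values of these genes was not tested. Replicate 1 of H4K16R held 462 counts of Lcp1 and 187 of Lcp2, against 22 to 108 and 2 to 34 in the other H4K16R libraries. Lcp1 did not pass with it (1.99 ± 0.75, edgeR adjusted p = 0.206) and was at 0.56 without it. Lcp3, at 51.5, 33.2, 16.9 and 39.3 CPM in H4K16R, was at 0.19 ± 0.36, and Lcp4, at 98.7, 81.5, 112 and 74.7 CPM, at 0.10 ± 0.14.

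**Figure D3:**
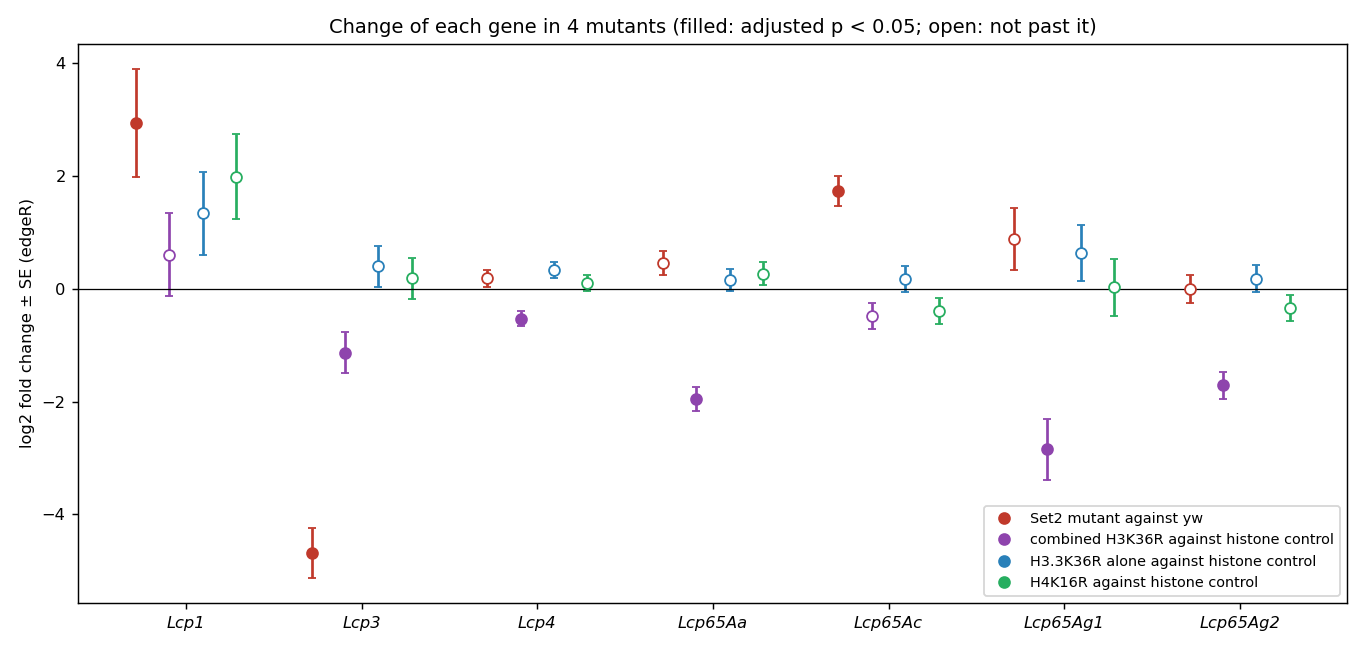
Log2 fold change ± SE from edgeR (y axis) of 7 of the genes (x axis) in each mutant against its control; Lcp2 is left out for its low counts, and filled points passed an adjusted p of 0.05. Lcp3 stands at -4.68 in the Set2 mutant, the combined H3K36R points of Lcp3, Lcp4, Lcp65Aa, Lcp65Ag1 and Lcp65Ag2 are filled below 0, and no point of H3.3K36R alone or H4K16R is filled.

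Histone mutants were also compared with each other, which asks what the change in replicated H3 adds to that in H3.3. These comparisons share their libraries with those above. In combined H3K36R against H3.3K36R alone 6 of the 8 genes were called lower, where 28.0% of all genes tested were and 47.7% were called in either direction. Lcp65Ag1 was at -3.49 ± 0.55, Lcp65Aa at -2.11 ± 0.21, Lcp65Ag2 at -1.89 ± 0.24, Lcp3 at -1.54 ± 0.37 and Lcp4 at -0.86 ± 0.14, each past the threshold in edgeR. Without replicate 3 of combined H3K36R the estimate for Lcp65Ag1 was -4.26. Lcp65Ac, at 26.5, 23.7, 36.7 and 36.7 CPM against 39.9, 48.7, 55.1 and 52.2 CPM, was lower in this comparison too, by 0.66 ± 0.23 (edgeR adjusted p = 0.0234). That call was lost without replicate 1 or 2 of combined H3K36R or replicate 2, 3 or 4 of H3.3K36R alone, at adjusted p from 0.0589 to 0.0859.

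In combined H3K36R against H4K16R 5 of the 8 were called lower, where 26.8% of all genes tested were and 45.2% were called. They were Lcp65Ag1 at -2.87 ± 0.53, Lcp65Aa at -2.22 ± 0.21, Lcp65Ag2 at -1.37 ± 0.24, Lcp3 at -1.32 ± 0.37 and Lcp4 at -0.63 ± 0.14. For Lcp65Ag1 the estimate was -2.19 without H4K16R replicate 3 and -3.64 without combined H3K36R replicate 3. Lcp65Ac was at -0.10 ± 0.23 and did not pass. In H3.3K36R alone against H4K16R edgeR called 8.40% of all genes and 0 of the 8, DESeq2 called 0 of the 8, and 2 had an unadjusted p below 0.05, Lcp65Ac at 0.56 ± 0.23 and Lcp65Ag2 at 0.52 ± 0.23. Without H4K16R replicate 3, Lcp65Ag2 passed at 0.72 (edgeR adjusted p = 0.0400).

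The controls themselves differed. In the histone control against yw 2 of the 8 genes were called, where 8.08% of all genes tested were. Lcp65Ac was at 60.8, 31.4, 35.5 and 45.8 CPM in the histone control against 19.9, 16.5 and 15.4 CPM in yw, without overlap, and was higher in the histone control by 1.33 ± 0.26 (edgeR adjusted p = 0.00205). Lcp4, at 67.8, 85.7, 103.0 and 85.8 CPM against 66.4, 52.9 and 45.5 CPM, was higher by 0.64 ± 0.15 (edgeR adjusted p = 0.00941), a call that was lost without yw replicate 4 (adjusted p = 0.0644). Lcp3 was at 29.3, 36.9, 30.4 and 27.1 CPM in the histone control and 15.7, 19.2 and 14.4 CPM in yw. Those libraries did not overlap, and the share of all genes without overlap between these groups was not determined. Lcp3 did not pass in the fit over all libraries (0.91 ± 0.40, edgeR adjusted p = 0.187). With the compared groups alone it passed (0.95, edgeR adjusted p = 0.00261). Lcp65Ag1 lay lower in every histone control library than in yw and did not pass (-1.03 ± 0.53, adjusted p = 0.280). Lcp1, with 68, 17, 54 and 26 counts in the histone control against 0, 12 and 4 in yw, did not overlap either and was at 2.71 ± 0.95. It did not pass in edgeR (adjusted p = 0.0892, and 0.0638 to 0.250 with 1 library left out), but DESeq2 called it (adjusted p = 0.0118). Both the Set2 mutant and the histone control thus had more Lcp1 counts in every library than any yw library. So did the histone mutants, with at least 42 counts in combined H3K36R, 62 in H3.3K36R alone and 22 in H4K16R. The level of Lcp65Ac in the Set2 mutant, 43.4 to 81.8 CPM, thus overlapped that of the histone control, 31.4 to 60.8 CPM, and both lay above yw. Combined H3K36R (23.7 to 36.7 CPM), H3.3K36R alone (39.9 to 55.1 CPM) and H4K16R (21.8 to 42.3 CPM) lay above yw too.

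Whether the effects of the mutants differ was tested as a contrast of the same model, each mutant against its own control. Between the Set2 effect and the combined H3K36R effect 6 of the 8 genes were called, where 51.5% of all genes tested were. Lcp3 had a more negative effect in the Set2 mutant, by -3.54 ± 0.55 (edgeR adjusted p = 3.19e-05). The other 5 had a higher effect in the Set2 mutant, with differences of 3.73 ± 0.77 for Lcp65Ag1, 2.41 ± 0.30 for Lcp65Aa, 2.22 ± 0.35 for Lcp65Ac, 1.71 ± 0.35 for Lcp65Ag2 and 0.72 ± 0.20 for Lcp4. For Lcp65Ag1 the difference was 4.55 without replicate 3 of combined H3K36R. Lcp1, at 2.33 ± 1.18 (edgeR adjusted p = 0.107), passed without yw replicate 3 (adjusted p = 0.0379). Against the H3.3K36R effect 2 of the 8 were called, where 10.4% of all genes were, and against the H4K16R effect also 2, where 23.6% were. They were Lcp3, at -5.08 ± 0.56 and -4.87 ± 0.56, and Lcp65Ac, at 1.55 ± 0.35 and 2.12 ± 0.35.

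The balance between close neighbours differed among groups as well. These ratios of counts were chosen after the values were seen, are not corrected for length and carry no test. Lcp65Ag1 per Lcp65Ag2 was 0.884 to 1.04 in the Set2 mutant, 0.0659 to 0.247 in combined H3K36R, 0.331 to 0.543 in H3.3K36R alone, 0.255 to 0.589 in H4K16R, 0.255 to 0.382 in the histone control and 0.418 to 0.553 in yw. The Set2 mutant lay above and combined H3K36R below every library of the other groups. Lcp65Ag3 per Lcp65Ag2 kept within a smaller range, at 0.503 to 0.769 in the Set2 mutant, 0.451 to 0.510 in combined H3K36R and 0.348 to 0.583 in the other 4 groups. Lcp3 per Lcp4 was 0.00693 to 0.0169 in the Set2 mutant, 0.213 to 0.272 in combined H3K36R, 0.136 to 0.577 in H3.3K36R alone, 0.151 to 0.525 in H4K16R, 0.295 to 0.433 in the histone control and 0.237 to 0.362 in yw. No Set2 mutant library came near the lowest of the others.

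**Figure D4:**
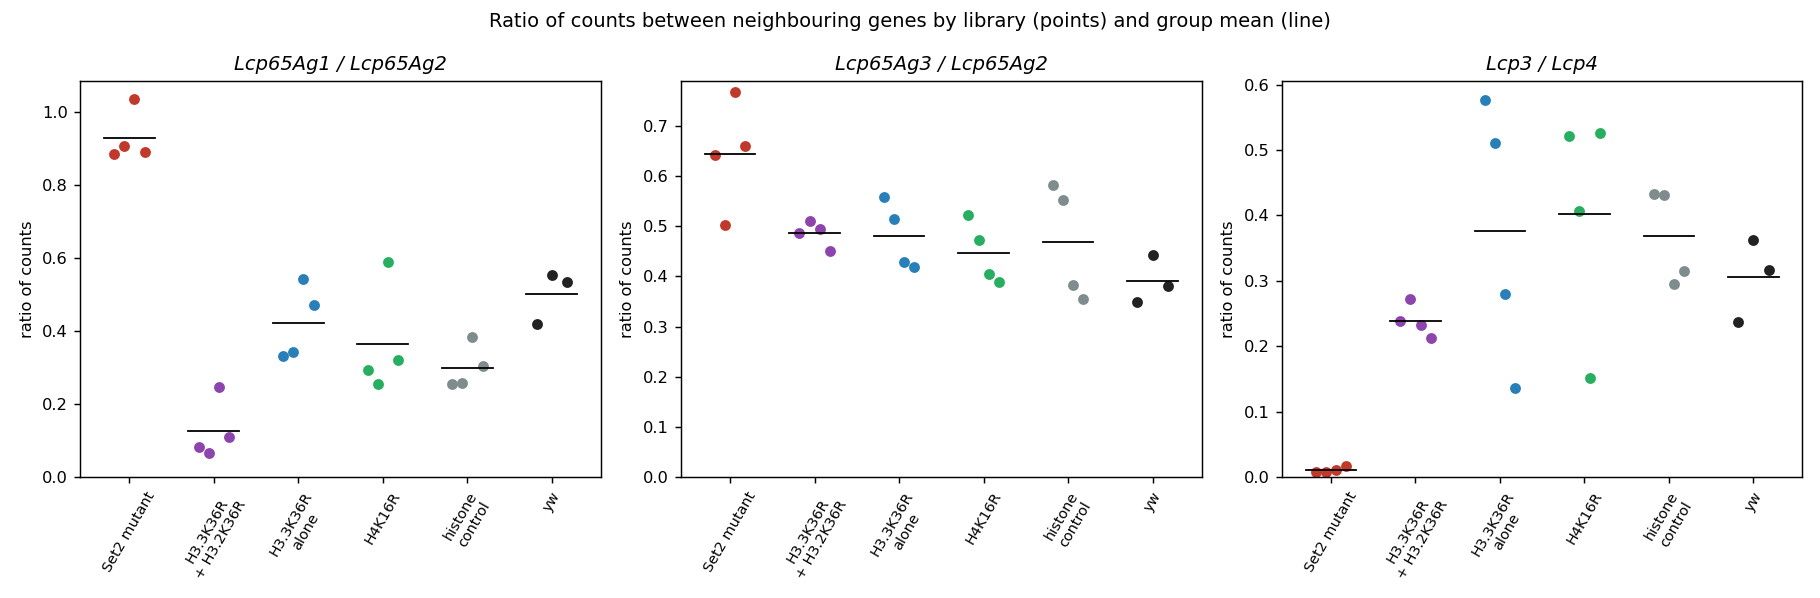
Ratio of counts between neighbouring genes (y axes, from 0) by library (points) in each group, with the group mean as a line. Lcp65Ag1 per Lcp65Ag2 averages 0.929 in the Set2 mutant and 0.126 in combined H3K36R, and Lcp3 per Lcp4 averages 0.0103 in the Set2 mutant.

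Across the 23 libraries, 3 genes of the 3L array varied together. Pearson's r of log2 CPM was 0.94 for Lcp65Ag1 with Lcp65Ag2, 0.93 for Lcp65Aa with Lcp65Ag1 and 0.86 for Lcp65Aa with Lcp65Ag2. With each group's mean removed these were 0.80, 0.54 and 0.19, so much of the likeness lay between genotypes. Lcp65Ac had an r of 0.29 with Lcp65Ag1, 0.26 with Lcp65Ag2 and 0.22 with Lcp65Aa, and of 0.31, 0.39 and 0.13 with group means removed. Lcp3 with Lcp4 had an r of 0.48, and -0.04 with group means removed. The libraries of a group share genotype and handling, and reads may be shared by close copies, so these are descriptions without a test.

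Outside the 8 genes, the pattern most like that of Lcp65Ag1 was that of ATPsynC, a subunit of ATP synthase, with an r of 0.98 over 23 libraries and 0.86 within groups, followed by Lcp65Af with 0.97 and 0.82. For Lcp65Ag2 it was CG6739 (0.96 and 0.90), then the nidogen gene Ndg (0.95 and 0.84), and for Lcp65Aa it was the neuropeptide-like precursor gene Nplp2 (0.98 and 0.80). For Lcp3 the closest were CG7900 (0.97, but 0.20 within groups) and CG14265 (0.96 and 0.75), and then Dh31-R, a diuretic hormone receptor gene (0.93 and 0.73). For Lcp4 it was CG15741 (0.84 and 0.34), and for Lcp65Ac CG31103 (0.89 and 0.49) and the lamin gene LamC (0.83 and 0.70). Lcp1 and Lcp2 were left out of this account because of their low counts.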

How the data were processed

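The deposited values were raw read counts per gene, whole numbers for 17606 FlyBase identifiers in 23 libraries. Per the labels' protocols, larvae were taken up in Trizol, RNA was treated with DNase, and a Nugen Ovation kit for Drosophila total RNA was used. The submitters' processing notes name STAR 2.7.2a and Subread 2.0.3. Build, annotation, strand setting and the handling of reads mapping to several places are not stated in the sources used here. Among counts from 5 to below 20, 62.1% were even, against 49.9% from 1000 up, so ends of a pair may have been counted apart, which was not tested. The share from 1000 up does not tell whether this holds for high counts too. Replicate 1 of yw was dropped by the submitters for a library construction error.

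From these counts, filterByExpr (minimum count 10) kept 14365 genes, all 8 members among them, and removed 3241. All 23 libraries, scaled by TMM, entered one quasi-likelihood fit in edgeR 4.0.16 (R 4.3.3) with 1 mean per genotype, robust moderation and 17 residual degrees of freedom, and the common biological coefficient of variation was 0.311. Two-sided p-values were adjusted over all genes tested by Benjamini-Hochberg, and genes were called at an adjusted p below 0.05. There were 8 comparisons between groups and 3 differences of effects. Errors are SD over libraries for levels and SE for log2 fold changes. The fit was tested on simulated data with known changes. Positions, symbols and exon lengths came from the BDGP6.54 annotation, which matched 17527 identifiers.

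The members and gene lists were chosen with earlier results of these data known. Named were all 8 members, up to 4 called genes per list with the lowest adjusted p, genes with the highest Pearson r of log2 CPM (prior count 2) for each member, and Set2. Cpr65Ax1 and Cpr65Ax2, the tracheal genes btl and trh, and the 3 genes not tested, were named after their values were seen. Listed symbols Cpr44D and AANAT1 were not matched by symbol and not analysed here. DESeq2 1.42.0, other scalings and filters, a replicate block, the compared groups alone and each library left out were tried as alternatives. At these depths counting error is small beside the spread between libraries for all members except Lcp1 and Lcp2.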

Additional observations from a re-analysis of the deposited data

Results flagged for a closer look

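For 3 of the genes 1 of the 4 H4K16R libraries stood far from the other 3, and it was not the same library for each gene. Replicate 1 had 1.44 CPM of Lcp2, where the next library had 0.236 CPM. Replicate 3 had 424 CPM of Lcp65Ag1, where the next had 140 CPM, and 720.0 CPM of Lcp65Ag2, where the next had 463 CPM. In that replicate the summed epidermal markers were also highest, at 605 CPM, and their part in the difference was not tested. These were 3 of 40 groups of 4 libraries examined, and chance alone gives about 1 in 20.

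The effect of the Set2 mutant against yw differed from the effect of a histone mutant against the histone control in 10 cases, each by a test of the difference itself in edgeR. Of all genes tested, 51.5% were called for the difference from the combined H3K36R effect. The shares were 10.4% for the H3.3K36R effect and 23.6% for the H4K16R effect. For Lcp3 the Set2 effect was the more negative, by -3.54 beside combined H3K36R, -5.08 beside H3.3K36R alone and -4.87 beside H4K16R, all on the log2 scale. For Lcp65Ac the Set2 effect was the higher, by 2.22, 1.55 and 2.12 beside the same 3 mutants. Beside combined H3K36R the Set2 effect was also higher for Lcp4, by 0.72, for Lcp65Aa, by 2.41, for Lcp65Ag1, by 3.73, and for Lcp65Ag2, by 1.71.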

How the results depend on the processing

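The 31 effects called on the 8 genes kept their direction and their call in 247 of 247 values under other scalings, filters and models, and in 303 of 313 values with 1 library left out, with 10 no longer past the threshold. These 10 belong to Lcp1 in the Set2 mutant, Lcp3 in combined H3K36R against the histone control, Lcp65Ac in combined H3K36R against H3.3K36R alone, and Lcp4 in the histone control against yw. A mean of at least 1 CPM removes Lcp1 and Lcp2, which have no value there. Lcp2 was called in none of the comparisons by edgeR. Of the effects not called, 27 were counted in the same way. Left out were Lcp2, the comparisons of combined H3K36R and H3.3K36R alone with H4K16R, and the Set2 effect minus the H3.3K36R or H4K16R effect. Of their 210 values under other settings 5 passed. In the histone control against yw these were Lcp1 (2.77, DESeq2) and Lcp3 (0.95, compared groups alone). In the Set2 mutant they were Lcp65Ag1 (0.86, compared groups alone) and the values with a replicate block given next.

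The labels do not say what replicate numbers mark. Correlations of the deviations of same-numbered replicates ran from -0.10 to 0.43 and were not above 0.1 for every number in any comparison, so the fits were left unpaired. Between the 4 histone genotypes they were positive for replicate 1 (0.13 to 0.33) and replicate 3 (0.17 to 0.43) in all 6 comparisons, a hint from the data and not from the design. With a replicate block 4 members were called higher in the Set2 mutant against yw, with Lcp65Aa (0.48, adjusted p = 0.0259) and Lcp65Ag1 (1.13, adjusted p = 0.0360) added. Without a block 23.4% of all genes tested were called higher there, and the share with a block is not given here. The number called among all genes in H3.3K36R alone was 854 with the block, and Lcp65Ag1 was at -0.11 in H4K16R.

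Effects near 0 changed sign. Lcp65Ag2 in the Set2 mutant, at 0.0030, was at -0.0016 with RLE size factors, -0.015 with a mean of at least 1 CPM, -0.015 with the compared groups alone and -0.0017 in DESeq2, and ran from -0.26 to 0.17 with 1 library left out. Lcp65Ag1 in H4K16R was at -0.018 with TMM factors from genes other than cuticle genes, -0.0016 without a filter and -0.012 with a mean of at least 1 CPM, and ran from -0.65 to 0.18 with 1 library left out. Under the same omission Lcp3 in H4K16R ran from -0.055 to 0.38, Lcp4 in H4K16R from -0.043 to 0.19, and Lcp65Aa in H3.3K36R alone from -0.0085 to 0.19.

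Among all genes, calls in H4K16R were 188, but 319 with TMM factors without cuticle genes, 385 with a mean of at least 1 CPM, 9 with the compared groups alone and 645 in DESeq2, and 71 to 480 with 1 library left out. Those in H3.3K36R alone were 282, but 710 in DESeq2 and 156 to 458 with 1 library left out. In H3.3K36R alone against H4K16R they were 1206, but 574 with the compared groups alone and 681 to 2741 with 1 library left out. With 1 library left out, the counts were 664 to 1083 in the histone control against yw, 732 to 1563 for the Set2 effect minus the H3.3K36R effect, and 2289 to 5371 for that minus the H4K16R effect. Members called higher were then 1 to 3 in the Set2 mutant against yw (1 with a mean of at least 1 CPM), 1 to 2 in the histone control against yw, and 0 to 1 in H3.3K36R alone against H4K16R. The causes were not tested.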

Other observations

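Within each of the 4 histone genotypes, replicate 3 had the highest Lcp65Ag1 per Lcp65Ag2. The values were 0.247 of a range of 0.0659 to 0.247 in combined H3K36R, 0.543 of 0.331 to 0.543 in H3.3K36R alone, 0.589 of 0.255 to 0.589 in H4K16R and 0.382 of 0.255 to 0.382 in the histone control. The level of Lcp65Ag1 itself was also highest in replicate 3 of each, at 64.5, 384, 424 and 275 CPM. The labels do not say that replicate numbers mark a shared day or batch, and this was noticed after the values were seen and not tested.

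Lcp3 and its neighbour Lcp4 spread differently within some genotypes. In H3.3K36R alone it spanned 14.3 to 64.1 CPM while Lcp4 spanned 105 to 111 CPM in the same libraries. In H4K16R the spans were 16.9 to 51.5 CPM for Lcp3 and 74.7 to 112 CPM for Lcp4. In the Set2 mutant Lcp3 spanned 0.425 to 0.987 CPM.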
